A study of Homo sapiens with 14 samples.

Results

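Primed SOX2 sites without a naïve SOX2 peak were examined by whether BAF also occupied the same sequence in naïve cells. The cells were WIBR3, a line of human embryonic stem cells (hESCs) in long use, cultured conventionally with FGF2 as primed cells or as naïve cells in 5i/L/A, a cocktail of kinase inhibitors with LIF and Activin A. Both states were grown on mouse embryonic fibroblast feeders, and per the labels naïve cells were obtained by polyclonal conversion of pre-existing primed cells. The naïve state thus stands for the earlier developmental stage and was not an earlier time point of the same culture. SOX2 and the BAF subunits BRG1, BAF155 and BRM were mapped by ChIP-seq, the sequencing of DNA fragments precipitated with an antibody, with no genetic change or other treatment in any group. Each BAF subunit had 1 library per state, and the 2 SOX2 libraries of a state had peak lists with identical coordinates and were counted as 1, so that no value below has a replicate error.

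The primed SOX2 list held 9290 peaks on the main chromosomes of hg38. Of these, 932 shared at least 1 bp with 1 of the 1940 naïve SOX2 peaks, and the other 8358 are the sites described here. Naïve BRG1 and BAF155 peaks were merged where they touched into 77195 naïve BAF regions, more than the paper counts for its merged naïve BAF peaks. The 8358 sites were split by overlap with these regions, counting an overlap when at least 25% of either region was covered. By this rule 2980 sites had naïve BAF (35.7%, exact 95% interval 34.6 to 36.7%) and 5378 did not, against 41.6% in naïve BAF for all primed SOX2 peaks. They are called sites with naïve BAF and sites without naïve BAF. The sites nearest to the threshold on the inside, by DNAJC15, CSNK2A3 and KIF5C, had an overlap of 25.3%, 25.4% and 25.7%, and those nearest on the outside, by MRPL19, EPHB1 and PJA1, had 24.8%, 24.7% and 24.2%.

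BAF, the mammalian SWI/SNF complex, uses the energy of ATP to slide or evict nucleosomes, and its ATPase is either BRG1 (SMARCA4) or BRM (SMARCA2). BAF155 (SMARCC1) is a scaffold on which the complex is built. SOX2 is a transcription factor of the pluripotency network and of the neural lineage that bends DNA at a short core sequence and often binds beside OCT4 at a composite element. Remodelling by BAF can expose such sequences to transcription factors.

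As a check of the labels, BAF regions were counted within 20 kb of marker genes. All 6 naïve markers (KLF17, TFCP2L1, DPPA5, DNMT3L, TFAP2C and SUSD2) had more naïve than primed regions, 35 against 8 in sum. The 6 primed markers (ZIC2, SFRP2, SOX11, DUSP6, OTX2 and CD24) had 24 naïve and 25 primed regions in sum, and of them ZIC2 had more primed regions while OTX2 and CD24 had more naïve ones. In all there were 77195 naïve and 58508 primed BAF regions, and the marker counts were not adjusted for this. By raw counts the BAF lists thus set the naïve markers apart and not the primed ones.

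Strong sites of each class with a SOX core in their central 200 bp are shown so that the sequences compared below can be read directly. Letters are the plus strand of hg38, and capitals mark the SOX core (ACAAAG or ACAATG, on either strand) and the shortened OCT-SOX element TTGTNATGC, which may overlap the core. The first 4 sequences had naïve BAF and the last 3 did not.
CDX2 (chr13:27966060-27966259): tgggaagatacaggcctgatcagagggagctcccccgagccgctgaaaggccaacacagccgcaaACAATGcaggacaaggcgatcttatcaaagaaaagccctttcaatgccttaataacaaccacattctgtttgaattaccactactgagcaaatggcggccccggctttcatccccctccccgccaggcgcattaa
GBX2 (chr2:236159474-236159673): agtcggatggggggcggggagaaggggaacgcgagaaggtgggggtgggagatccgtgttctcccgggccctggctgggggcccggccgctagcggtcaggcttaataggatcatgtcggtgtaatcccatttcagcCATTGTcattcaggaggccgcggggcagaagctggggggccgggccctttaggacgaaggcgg
BTBD2 (chr19:2028835-2029034): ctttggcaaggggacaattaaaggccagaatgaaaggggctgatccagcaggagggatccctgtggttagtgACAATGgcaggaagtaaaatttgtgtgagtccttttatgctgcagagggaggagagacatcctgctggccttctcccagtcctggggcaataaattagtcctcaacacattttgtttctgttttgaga
SPRY2 (chr13:80359708-80359907): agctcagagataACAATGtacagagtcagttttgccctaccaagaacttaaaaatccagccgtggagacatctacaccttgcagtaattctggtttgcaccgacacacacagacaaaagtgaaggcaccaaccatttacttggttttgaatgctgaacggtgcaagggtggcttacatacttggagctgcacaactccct
ETS1 (chr11:128532663-128532862): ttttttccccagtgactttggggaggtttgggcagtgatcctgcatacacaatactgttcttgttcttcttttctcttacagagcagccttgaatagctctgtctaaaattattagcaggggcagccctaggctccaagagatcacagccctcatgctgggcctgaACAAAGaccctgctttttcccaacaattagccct
GLRA1 (chr5:151918020-151918219): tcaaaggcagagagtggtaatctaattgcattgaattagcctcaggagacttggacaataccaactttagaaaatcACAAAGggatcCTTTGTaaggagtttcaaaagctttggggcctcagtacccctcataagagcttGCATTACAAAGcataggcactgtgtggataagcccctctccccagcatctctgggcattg
PAMR1 (chr11:35549033-35549232): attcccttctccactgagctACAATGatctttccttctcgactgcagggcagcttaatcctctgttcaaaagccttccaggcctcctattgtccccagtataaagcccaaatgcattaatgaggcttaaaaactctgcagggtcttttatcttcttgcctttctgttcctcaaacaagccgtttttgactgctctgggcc

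CDX2, a homeobox factor of trophectoderm and of the later gut, lay beside the strongest of the sites with naïve BAF, an intronic peak (chr13:27965836-27966484) with a SOX2 fold over input of 35.7. Its naïve folds were 2.57 for BRG1 and 2.90 for BAF155 with no BRM peak, and its primed folds were 3.48 for BRG1 and 4.45 for BAF155. The peak by GBX2, a homeobox factor of the anterior hindbrain (chr2:236159326-236159821), had a SOX2 fold of 26.5. All 5 BAF lists that give a fold held a peak there, with naïve folds of 3.78, 4.49 and 3.79 for BRG1, BAF155 and BRM and primed folds of 5.14 and 7.99 for BRG1 and BAF155. An intronic site by BTBD2 (chr19:2028732-2029137) had a SOX2 fold of 23.9. Its naïve folds were 4.06, 3.73 and 3.36 for BRG1, BAF155 and BRM, and its primed folds were 5.74 and 8.26 for BRG1 and BAF155. By SPRY2, an inhibitor of FGF receptor signalling, the peak (chr13:80359446-80360170) had a SOX2 fold of 22.3, naïve folds of 2.89 and 2.83 and primed folds of 4.70 and 4.79 for BRG1 and BAF155. The folds of different antibodies are not on a common scale, so at these sites only the presence of a peak is compared between them.

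Among the 10 strongest sites with naïve BAF and a protein-coding TSS within 20 kb, 6 further ones lay by CACHD1, URM1, a ubiquitin-like modifier, NMNAT2, an axonal NAD-synthesizing enzyme, GIMAP5, AXIN2, a feedback inhibitor of WNT signalling, and LRRN1, with SOX2 folds of 24.3, 24.2, 21.9, 21.6, 21.4 and 21.1. The NMNAT2 and GIMAP5 sites had a naïve BAF155 peak alone and the LRRN1 site a naïve BRG1 peak alone. Over all sites without naïve BAF the highest SOX2 fold was 36.8. Under the same 20 kb rule, with chromosome 8 left out, the strongest of them lay between genes by USP7, a deubiquitinase (chr16:8983598-8984180). It had a SOX2 fold of 27.6 and primed folds of 4.88 for BRG1 and 5.76 for BAF155. ETS1, a transcription factor, followed with an intronic peak of SOX2 fold 27.1, FMN1, an actin-nucleating formin, with 26.7, and GLRA1, a glycine receptor subunit, with 26.7. The GLRA1 window held 3 SOX cores and an OCT-SOX element, whereas each other sequence shown held 1 core. Further sites of this rule lay by PAMR1, MUC1, APBA2, RPH3A, a synaptic vesicle protein, and TMDD1, at SOX2 folds of 20.2 to 21.9. Each of the 20 sites carried a primed BRG1 and a primed BAF155 peak, with or without naïve BAF.

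To see whether naïve BAF went with stronger SOX2 binding, the 8358 sites were ranked by SOX2 fold and split into 5 equal groups. The share with naïve BAF was 36.4%, 35.8%, 33.0%, 35.5% and 37.4% from the weakest to the strongest group. The median SOX2 fold was 6.56 in both classes. The medians of SOX2 enrichment were thus equal, with median peak widths of 303 bp with and 285 bp without naïve BAF. The 932 sites that naïve SOX2 also occupied differed from both. Their median SOX2 fold was 9.48, and a naïve BAF region covered 95.4% of them (interval 93.8 to 96.6%).

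Sites with naïve BAF lay closer to genes. A transcription start site (TSS) within 1 kb, here called a promoter, was present at 744 of 2980 sites with naïve BAF (24.97%, interval 23.4 to 26.6%) and at 641 of 5378 without (11.9%, interval 11.1 to 12.8%), against 16.1% of all primed SOX2 peaks. The odds ratio was 2.46 (Woolf 95% interval 2.19 to 2.76). For protein-coding genes alone the contrast was wider, 17.1% against 4.98% and an odds ratio of 3.94 (interval 3.37 to 4.60). The median distance to a TSS was 6271.5 bp (interval 5600 to 6756 bp) with and 12224.5 bp (interval 11726 to 12935 bp) without naïve BAF. Introns held 41.1% of sites with and 51.8% of sites without naïve BAF, and intergenic sequence held 31.1% and 33.3%. Intronic means inside any annotated gene, outside exons and promoters, and not always in an intron of the gene named. Sites more than 100 kb from a protein-coding TSS made up 22.1% and 34.9%. Both the promoter difference and the difference in TSS distance depended on the overlap rule. With the stricter requirement that 50% of each region be covered, only 981 sites had naïve BAF and the log2 odds ratio for promoters was -0.25 (interval -0.52 to 0.02) in place of 1.30, and the log2 ratio of the median TSS distances was 0.080 in place of -0.96. Naïve BAF regions under promoter sites had a median width of 1159.5 bp, against 637 bp under the other sites with naïve BAF, and a region more than 2 times as wide as the SOX2 peak cannot pass that rule.

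**Figure D1:**
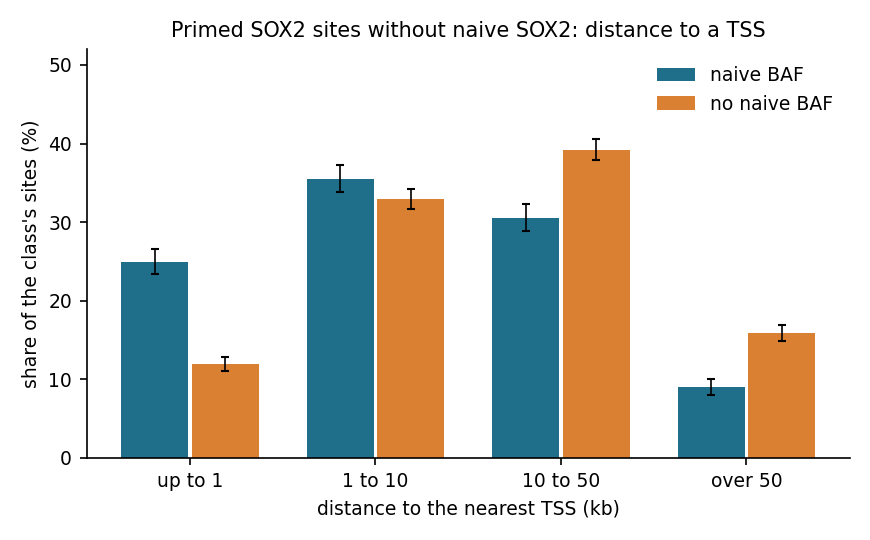
Share of primed SOX2 sites without naïve SOX2 (y axis, %) by distance from the site's midpoint to the nearest annotated TSS (x axis, kb), for 2980 sites with and 5378 sites without naïve BAF, with exact 95% intervals of counting error. The classes are most apart within 1 kb, at 24.97% and 11.9%, and the order is turned over beyond 10 kb, with 8.96% and 15.9% over 50 kb.

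Primed BRG1 was found more often at sites with naïve BAF. A primed BRG1 peak covered 1516 of 2980 sites with naïve BAF (50.9%) and 1839 of 5378 without (34.2%), against 41.9% of all primed SOX2 peaks, an odds ratio of 1.99 (interval 1.82 to 2.18). Primed BAF155 was present at 93.4% and 84.5%, against 88.4% of all, an odds ratio of 2.58 (interval 2.20 to 3.04). A primed BRG1 peak without a primed BAF155 peak was seen at 3 sites of each class. With naïve BAF 42.6% of the sites had primed BAF155 alone and 6.54% had neither, and without naïve BAF these shares were 50.3% and 15.5%. Among sites with a primed BAF155 peak the BRG1 odds ratio was 1.76 (interval 1.60 to 1.93). The primed BRG1 list is shorter than the primed BAF155 list, 15611 against 58352 peaks, whereas the naïve lists held 57884 and 62338. A site with primed BAF155 alone thus lacked a BRG1 call in 1 library, and whether BRG1 was absent there was not tested. The fold of the primed BRG1 peaks themselves was similar, with medians of 3.65 with and 3.66 without naïve BAF.

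The BRG1 difference was present at every level of SOX2 binding. In the weakest of the 5 SOX2 fold groups a primed BRG1 peak was found at 36.8% of sites with and 23.9% without naïve BAF, and in the strongest at 74.8% and 59.3%. The odds ratios within the 5 groups lay between 1.85 and 2.26, and no interval reached 1. At promoters the log2 odds ratio was 0.89 (interval 0.57 to 1.20) and at distal sites 1.03 (interval 0.89 to 1.18). By annotation, the share with primed BRG1 was 48.8% at promoters, 53.7% in exons, 52.1% in introns and 50.6% between genes with naïve BAF, and 34.0%, 29.9%, 36.4% and 31.2% without. Both SOX2 strength and naïve BAF therefore went with primed BRG1, while position made a smaller difference. For BAF155 the class difference fell to a log2 odds ratio of 0.39 (interval 0.24 to 0.53), from 1.37, when all BAF peaks were set to 500 bp, and to 0.48 (interval 0.28 to 0.68) under the rule of 50% of both regions. For BRG1 those settings gave 0.85 and 1.01 against 0.99.

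**Figure D2:**
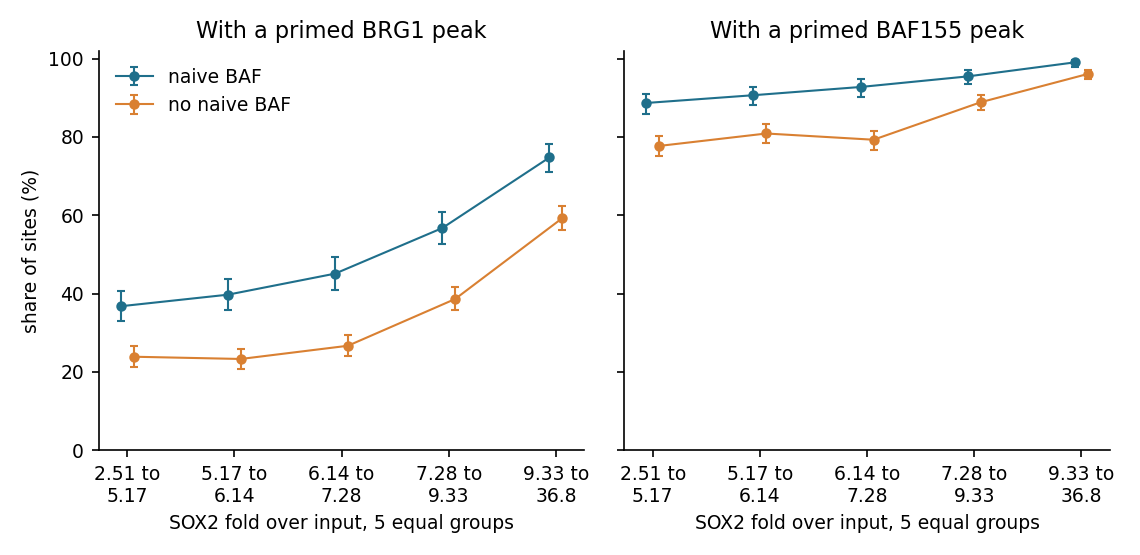
Share of sites with a primed BRG1 peak (left) or a primed BAF155 peak (right) on the y axis (%), by SOX2 fold over input in 5 equal groups (x axis), with exact 95% intervals of counting error. BRG1 shares climb from 36.8% to 74.8% with naïve BAF and from 23.9% to 59.3% without, and the class with naïve BAF is the higher in every group of both panels.

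The naïve occupancy itself was then taken apart. Of the 2980 sites, 1943 were covered by both a naïve BRG1 and a naïve BAF155 peak, 537 by BAF155 alone and 500 by BRG1 alone. Primed BRG1 was present at 54.9% (interval 52.7 to 57.1%), 43.4% (interval 39.2 to 47.7%) and 43.2% (interval 38.8 to 47.7%) of these. The last 2 did not differ beyond their intervals, and both stood above the 34.2% of sites without naïve BAF (interval 32.9 to 35.5%). Sites with naïve BAF were also ranked by the higher of their naïve BRG1 and BAF155 folds and split into 5 equal groups. Primed BRG1 was present at 41.9%, 47.8%, 47.7%, 56.7% and 60.2% from the weakest to the strongest naïve BAF. The median SOX2 fold moved with this ranking, from 6.26 to 6.92, and the promoter share fell from 33.7% to 17.4%, and their part in the gradient was not tested. The ranking also mixes folds of 2 antibodies that are not on a common scale. A site with both peaks enters it with the larger of 2 values, and the part of double coverage in the gradient was not tested.

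Naïve BRM, the ATPase alternative to BRG1, was present at 660 of the 2980 sites (22.1%) and at 10 of the 5378 without naïve BAF, against 12% of all primed SOX2 peaks. BRM peaks lay mainly in the doubly covered group, at 32.3% of it, and at 4.10% and 2.00% of the sites with BAF155 or BRG1 alone. Where naïve BRM was present, 62.3% of sites (interval 58.5 to 66.0%) had primed BRG1, and where it was not, 47.6% did (interval 45.6 to 49.7%), an odds ratio of 1.81 (interval 1.52 to 2.17). At distal sites the odds ratio was 1.75 (interval 1.43 to 2.16). The BRM share rose from 5.20% to 45.3% over the 5 groups of naïve BAF fold, so BRM and a high naïve BAF fold cannot be told apart here.

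Among sites without naïve BAF, the share with primed BRG1 changed little with the gap to the nearest naïve BAF region. Sites without naïve BAF lay at a median of 15466.5 bp from the nearest naïve BAF region, 3189 of them over 10 kb away, 1562 at 1 to 10 kb, 543 within 1 kb and 84 touching a region by less than 25%. The shares with primed BRG1 were 33.7%, 34.7%, 35.7% and 33.3%, and the interval of the 84 touching sites was wide, 23.4 to 44.5%. The 4 intervals overlapped each other, and all 4 shares were below the 41.9% of the sites with the weakest naïve BAF (interval 37.9 to 46.0%), although the intervals of the 2 nearest groups reached into that range. Primed BAF155 was less even, at 84.1%, 83.7%, 87.3% and 94.0% in the same order. Its interval was 82.8 to 85.4% over 10 kb away and 86.7 to 98.0% at the touching sites.

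**Figure D3:**
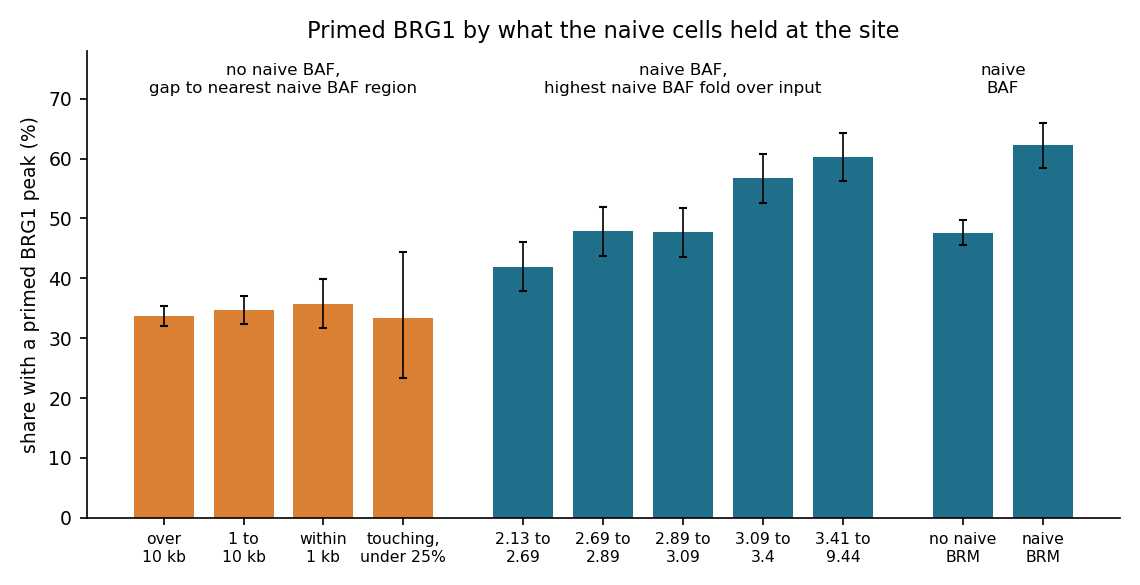
Share of sites with a primed BRG1 peak (y axis, %, exact 95% intervals of counting error) for sites without naïve BAF by the gap to the nearest naïve BAF region, for sites with naïve BAF in 5 equal groups of naïve BAF fold, and for the latter sites split by a naïve BRM peak. The orange bars lie at 33.3 to 35.7%, and the blue bars climb from 41.9% to 60.2% with naïve BAF fold.

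Sequence motifs were counted in the 200 bp at the midpoint of each site, on both strands, and in the 200 bp windows 2 kb to either side. The SOX core was present at 53.1% of sites with and 63.6% of sites without naïve BAF, against 23.9% and 25.3% in their surroundings. The odds ratio between the classes was 0.65 (interval 0.59 to 0.71). The OCT-SOX element was at 4.46% and 5.39%, with surroundings of 0.570% and 0.474%. This difference was within counting error (odds ratio 0.82, interval 0.66 to 1.01). Sites shared with naïve SOX2 held the OCT-SOX element at 12.7% (interval 10.6 to 15.0%). The SOX core, which SOX2 reads, was thus common in both classes and less so where naïve BAF lay.

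Letters of other factor families divided the classes too. The ZIC letters CCTGCTG, read by zinc finger factors of the primed and neural state, were at 10.1% of sites with and 16.8% without naïve BAF, against surroundings of 4.82% in both classes. Their odds ratio was 0.56 (interval 0.49 to 0.64). The TFAP2 letters GCCNNNGGC, a palindrome read by factors of the naïve state and the trophoblast, went the other way, at 8.83% and 4.57% against surroundings of 4.53% and 3.81% (odds ratio 2.02, interval 1.69 to 2.42). Against their surroundings, TFAP2 letters were called above at sites with naïve BAF (odds ratio 2.04, interval 1.71 to 2.43). They were also called, by a smaller margin, at sites without (1.21, interval 1.03 to 1.42). KLF letters GGGNGTGGC were rare, at 1.58% and 0.874%, and their difference did not hold among distal sites (log2 odds ratio 0.65, interval -0.06 to 1.36) or within groups of like GC content (0.32, interval -0.29 to 0.92). The letters TAATCC of OTX factors were at 9.30% and 12.2%, against surroundings of 16.7% and 13.3%, and were called below them at sites with naïve BAF (odds ratio 0.51, interval 0.44 to 0.59) and not at sites without (0.91, interval 0.82 to 1.002). Median GC content of the windows was 48% with and 45.5% without naïve BAF. Within 10 groups of like GC content the log2 odds ratio was -1.01 (interval -1.21 to -0.80) for ZIC and 0.56 (interval 0.29 to 0.83) for TFAP2, against -0.84 and 1.01 without grouping. A match describes letters in a window and does not show that the factor was bound.

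**Figure D4:**
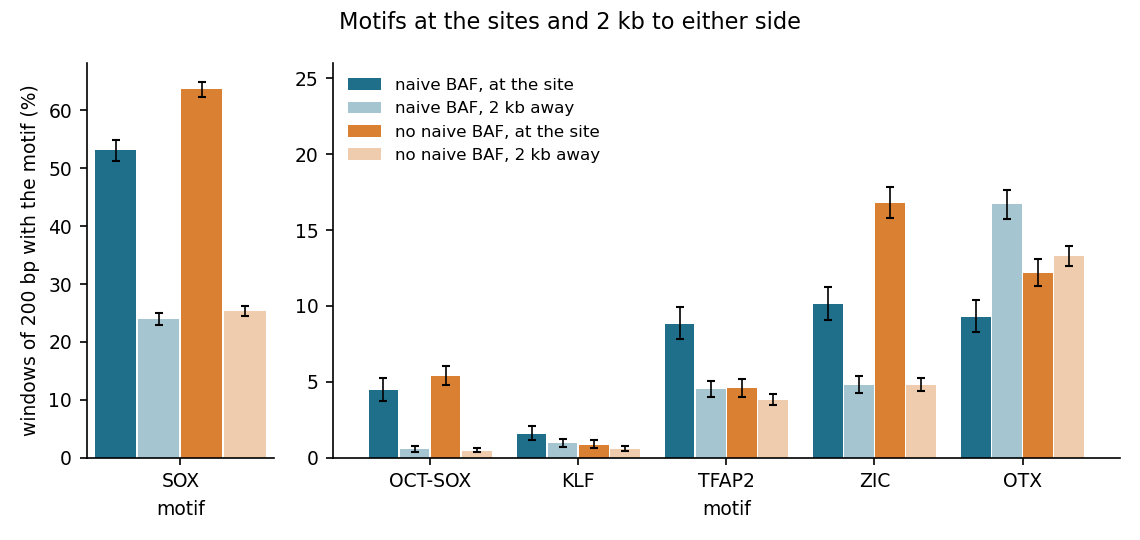
Share of 200 bp windows that hold each motif (y axis, %), at sites with and without naïve BAF (full colour) and in the windows 2 kb to either side (pale), with exact 95% intervals of counting error. SOX and ZIC letters are most frequent without naïve BAF, at 63.6% and 16.8%, and TFAP2 letters with it, at 8.83%.

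Genes were assigned by the nearest protein-coding TSS within 20 kb of a site. Such a site was present for 2470 of 19663 genes. Of these genes, 1028 had sites with naïve BAF alone, 1215 had sites without naïve BAF alone and 227 had both. In all, 1255 genes had a site with naïve BAF, which is 6.38% of protein-coding genes, and 1442 had a site without it, which is 7.33%. Among genes with any site 50.8% had a site with naïve BAF, and gene lists are read against that share. A gene with more sites is more likely to have at least 1 with naïve BAF, and the number of sites per gene was not adjusted for. Counted by site, all genes had 1422 sites with and 1651 without naïve BAF.

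Core pluripotency factors had sites of both classes. Of 20 listed genes 13 had a site, 10 of them a site with naïve BAF and 7 a site without, and the share with naïve BAF (76.9%, interval 46.2 to 94.96%) was within counting error of that over all genes. POU5F1, which encodes OCT4, had a site 1361 bp from its TSS of SOX2 fold 13.7 with naïve BRG1 and BAF155 folds of 3.36 and 3.17. The paralogues LIN28A and LIN28B, RNA-binding regulators of let-7, had 2 sites each, all with naïve BAF. The SOX2 gene itself had 2 sites without naïve BAF, the stronger of fold 7.78, and ZSCAN10 and FOXD3 had 1 each.

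Primed state genes lay mostly near sites without naïve BAF. Of 22 listed genes 15 had a site, 13 of these had only sites without naïve BAF, and the share with naïve BAF was 13.3% (interval 1.66 to 40.5%). DNMT3B, the de novo DNA methyltransferase of primed cells, had a site without naïve BAF 640 bp from its TSS (chr20:32780772-32781156) with a SOX2 fold of 19.2, a primed BAF155 fold of 2.85 and no primed BRG1 peak. FGF2, the growth factor of primed culture, had an intronic site of fold 12.7 with primed BRG1 and BAF155 folds of 3.76 and 3.81. ZIC5 and SALL1 followed at SOX2 folds of 6.94 and 6.83, and only the former had a primed BRG1 peak. The 2 exceptions were SALL3, with 2 sites in naïve BAF and a SOX2 fold of up to 12.4, and SFRP2, a secreted WNT inhibitor, with a promoter site of fold 5.48. Of 21 naïve state genes only KLF17 and KLF4 had a site, KLF17 with and KLF4 without naïve BAF.

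**Figure D5:**
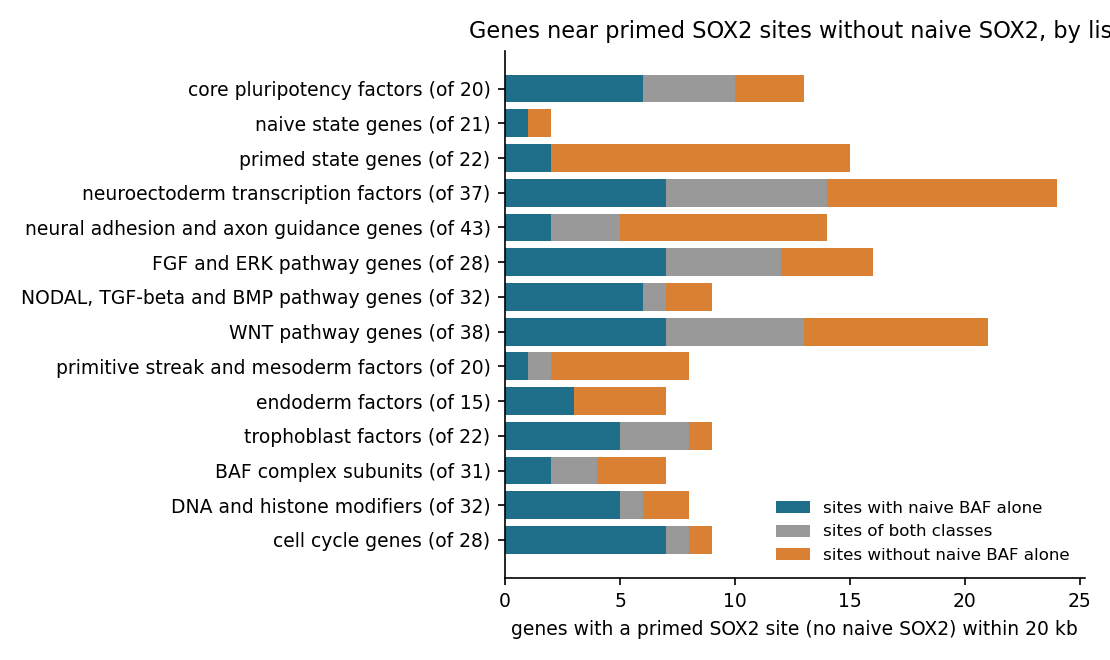
Number of genes of each list with a primed SOX2 site lacking naïve SOX2 within 20 kb of the TSS (x axis), split into genes with sites in naïve BAF alone, with sites of both kinds and with sites outside naïve BAF alone; the number of genes in the list follows its name. Primed state genes are almost all orange, 13 of 15, whereas 8 of 9 cell cycle and 8 of 9 trophoblast genes have a site with naïve BAF. For each of the latter 2 lists that is 88.9% (interval 51.8 to 99.7%), against 50.8% of all genes with a site.

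In 3 signalling lists the share of genes with a site in naïve BAF was 75% (FGF and ERK, interval 47.6 to 92.7%), 77.8% (NODAL, TGF-beta and BMP, interval 40.0 to 97.2%) and 61.9% (WNT, interval 38.4 to 81.9%), each within counting error of the 50.8% over all genes. Counted by site, these lists had 16, 10 and 17 sites with naïve BAF and 13, 3 and 23 without. Of 28 FGF and ERK genes 16 had a site, 12 with and 9 without naïve BAF. The strongest with naïve BAF lay by SPRY2, SPRED2 and SPRY1, feedback inhibitors of the pathway, at SOX2 folds of 22.3, 20.9 and 16.4, and the ERK-responsive factor ETV4 had a promoter site of fold 13.8. SPRY2 and SPRY1 each also had 1 site without naïve BAF. The strongest without naïve BAF lay by IL17RD, likewise a feedback inhibitor, at fold 17.5, and by FGF2 and FGF13. In the NODAL, TGF-beta and BMP list 9 of 32 genes had a site, 7 with and 3 without naïve BAF. Among the former the inhibitory SMAD7 and SMAD6 had folds of 16.1 and 11.9 and the transducers SMAD3 and SMAD4 11.5 and 11.3, while CER1, a secreted NODAL antagonist, had a promoter site of fold 16.9 without naïve BAF. WNT genes had a site at 21 of 38, 13 with and 14 without naïve BAF. AXIN2 had 2 sites of each class, and SP5, a WNT target, had 3 sites, all without naïve BAF.

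Developmental lists were mixed. Neuroectoderm transcription factors had a site at 24 of 37 genes, 14 with and 17 without naïve BAF. Beside GBX2, the strongest with naïve BAF lay by SOX21 (fold 17.6), ZEB2 (13.4) and HESX1 (13.3), and those without by ZEB2 (15.4), GLI2 (12.1), RAX (12.1) and FEZF1 (10.7). ZEB2, a repressor in neural and mesenchymal cells, thus had 1 site with and 3 without. Neural adhesion and axon guidance genes had a site at 14 of 43, 5 with and 12 without naïve BAF, the latter among them EPHA4, NRCAM and CNTNAP2. Trophoblast factors had a site at 9 of 22, 8 with and 4 without naïve BAF. Here CDX2 had 3 sites with and 1 without, TEAD1, a partner of YAP1, had 3 with, and GATA3 and WWTR1 had 1 each with naïve BAF, while YAP1 had 1 with and 2 without. Primitive streak and mesoderm factors had a site at 8 of 20, 2 with and 7 without, the latter led by SP5, MSGN1 and GSC. Endoderm factors had a site at 7 of 15, 3 with (HHEX, LAMA1 and FOXA1) and 4 without, and FOXA2 had 3 sites without naïve BAF.

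Genes of every list but the naïve one had a site more often than the 12.6% of all protein-coding genes. The shares were 32.1% for cell cycle genes, 25% for DNA and histone modifiers and 22.6% for BAF subunits. They were lower than the 65% of core pluripotency factors. Cell cycle genes had a site at 9 of 28, 8 with and 2 without naïve BAF, including CDKN1A, CCND3 and CCND2, and MYCN had 2 sites of each class. DNA and histone modifiers had a site at 8 of 32, 6 with and 3 without, led by EHMT1 and KDM2B with naïve BAF at folds of 16.1 and 11.8. Subunits of BAF had a site at 7 of 31, 4 with and 5 without, and ARID1A, a targeting subunit of canonical BAF, had 1 site without naïve BAF at fold 7.30. No list was tested for enrichment, and the lists are small.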

How the data were processed

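The sites and gene lists were chosen with earlier results of these data known. Of 14 labelled samples 10 came with a peak list, and 4 are inputs not analysed here. According to the methods, the authors trimmed reads with trim_galore, mapped them to hg38 with Bowtie2 (2.3.4 per the labels, with SAMtools 0.1.19), removed duplicates and called peaks with MACS2 against input, narrow for SOX2 and broad for BAF. The deposited lists give positions, a score, a fold over input (a linear ratio) and −log10 p- and q-values from the authors' caller. SOX2 libraries were paired-end and BAF libraries single-end. Whether SOX2 libraries were pooled is not given in the sources used here. Read depth was not used here, so a missing peak means no call at the authors' threshold.

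Autosomes, X and Y were used, with Python 3.11.15, pandas 2.3.3 and scipy 1.17.1, TSSs of GENCODE release 44 and the hg38 sequence. Shares carry exact Clopper-Pearson 95% intervals, odds ratios Woolf intervals and medians order-statistic intervals. They express counting error alone, since groups have no replicates, and no p-value is given because peaks are not replicates. Differences are called where the interval excludes an odds ratio of 1. The functions were tested on simulated peaks. Named genes are, per class, the 10 strongest sites with a protein-coding TSS within 20 kb, the 5 genes with most sites, and up to 4 genes per list by SOX2 fold, without chromosome 8. Sequences are from the 4 strongest sites per class with a SOX motif. Some items of these rules are not reported here. Alternatives covered the overlap rule, naïve BAF definition, list length, threshold, width, distance and strata; motif windows at the summit were added after seeing the data.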

Additional observations from a re-analysis of the deposited data

How the results depend on the processing

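The share of sites with naïve BAF, 35.7%, moved most with the overlap rule and the peak threshold. It was 11.7% with 50% of each region required and 15.2% with a −log10 q of at least 3 in the SOX2 and BAF lists, 29.2% from naïve BRG1 alone, 29.7% from BAF155 alone, 23.2% where both peaks covered the site, 28.2% with lists held to equal length, 31.1% with BAF peaks of 500 bp and 32.1% at distal sites. The rule of 50% of both regions also turned the log2 ratio of median TSS distances from -0.96 to 0.080, the promoter log2 odds ratio from 1.30 to -0.25 and that of KLF letters from 0.86 to -0.97. By construction that rule removes wide naïve BAF regions. KLF letters were no longer called with 500 bp peaks (0.40), at distal sites (0.65) or within GC groups (0.32). The OCT-SOX difference was called with naïve BRG1 alone (-0.38, against -0.29), and the OTX difference was not called with a −log10 q of at least 3 (-0.22, against -0.44); the cause was not tested. The primed BRG1 log2 odds ratio stayed between 0.85 and 1.36 and that of primed BAF155 between 0.39 and 1.77 over 12 alternatives each, and those of SOX, ZIC and TFAP2 letters kept their call over 13. Leaving out either SOX2 library of a state changes nothing, because their lists are identical in coordinates. No paired analysis was possible because each group counts as 1 library.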

Other observations

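Sites of a class lay near each other. Among sites with another of the 8358 sites within 20 kb, the nearest one had naïve BAF for 454 of 835 sites with naïve BAF (54.4%, interval 50.9 to 57.8%) and for 378 of 1238 sites without (30.5%, interval 28.0 to 33.2%). Neighbouring sites can share a BAF region and are not independent.

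Several genes had runs of sites. BCOR, an X-linked corepressor of the PRC1.1 complex, had 8 sites within 20 kb, 6 with and 2 without naïve BAF, all with a primed BAF155 peak and 6 with a primed BRG1 peak. IGF2BP3, LEMD1 and TNRC18 had 4 sites each, all with naïve BAF and 3 of the 4 with primed BRG1. ANK2, an ankyrin of excitable cells, had 5 sites without naïve BAF spread over its locus, 4 of them with primed BRG1. AUTS2, EML1 and RPH3A had 4 sites each, all without naïve BAF, and ARSD had 4 without and 1 with.

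The share of sites with naïve BAF also differed between chromosomes. It was highest on chromosome 19, at 86 of 141 sites (61.0%), and 50% on chromosome 17, and lowest on chromosomes 18 (28.4%) and X (29.0%). On chromosome 19 primed BRG1 was present at 27.7% of sites, although the share with naïve BAF was the highest there. The part of promoter density in these shares was not tested.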
